A study of Mus musculus with 28 samples.

Results

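The 10 genes described here mark conventional dendritic cells and their mature, migrating state, and they were taken by name from 25301 genes measured in sorted pancreatic macrophages of C57BL/6J mice, all wild type. They are Clec9a, Xcr1, Itgae, Flt3, Zbtb46, Irf8, Batf3, Fscn1, Ccr7 and Cd209a, and all 10 are in the table once. Acute pancreatitis was induced with caerulein, an analogue of cholecystokinin that overstimulates the acinar cells, and macrophages were collected during recovery by fluorescence-activated sorting. The 28 libraries fell into 6 groups: NC (3 libraries, an abbreviation that the labels do not spell out), D0 (5, day 0 of the model), D1 AP+Lac and D1 AP+PBS (6 each, day 1 of recovery with lactate or with phosphate-buffered saline), and D3 AP+Lac and D3 AP+PBS (4 each, day 3). The labels give no dose, route or timing of lactate, no sort markers and no age or sex, and do not say that each library is 1 mouse. The p-values therefore measure the spread between these libraries, which may be technical.

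Conventional dendritic cells take up antigen in tissues and present it to T cells. The type 1 subset depends on the transcription factors Irf8 and Batf3 and cross-presents antigen of dead cells, while the type 2 subset mainly primes helper T cells. On maturation both subsets raise Ccr7 and the cytoskeletal protein Fscn1 and leave for the draining lymph node. Dendritic cells share several surface markers with macrophages, so a sort for macrophages can hold both. In bulk RNA, fewer cells of a type and less RNA of a gene per cell cannot be told apart.

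Values are FPKM, fragments per transcript length and per total of mapped fragments, so levels of different genes can be set beside each other. The libraries held 33273303 to 41060490 fragments, recovered from the FPKM steps, and the lowest member value rested on 50 fragments (Itgae). No member was at 0 in any library. The 12 macrophage markers (Adgre1, Csf1r, Mertk, the C1q genes and others) were present throughout, with summed levels between 7491 and 20833 FPKM, and markers of T and NK cells, B cells and acinar cells were also above 0 in every library. On a principal component analysis of all genes tested, libraries 5 and 6 of both day 1 groups lay apart from libraries 1 to 4 on the third component, and D1 AP+PBS 5 lay with the lactate libraries on the second. The labels name no batch. Without these 4 libraries, a choice made after seeing the data, the number of members called changed only in D1 AP+PBS against NC (3 in place of 2), in D3 AP+Lac against D1 AP+Lac (3 in place of 4) and in lactate against PBS at day 1 (7 in place of 6).

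Start-site sequence of the members was read from RefSeq promoters (GRCm38.p6), since most of them moved together over the course. Of the 10 members, 8 were in that table, with 9 start sites; Ccr7 and Itgae were not. Windows of 260 bases (250 before the start and 10 from it) were searched on both strands for 5 motifs of factors that act in dendritic cells: the composite site of PU.1 with Irf8 or Irf4 (EICE, GGAA and GAAA with 2 bases between), the interferon response element (ISRE, GAAA and GAAA with 2 bases between), the AP-1 site bound by Batf proteins with Jun (TGANTCA), the NF-kB consensus and the PU.1 core (GAGGAAG). EICE and ISRE can overlap each other, and the PU.1 core can overlap EICE. Matches were found in 3 members, 1 in each, and these 3 are shown 5′ to 3′ on the strand of the gene, with the match in capitals.
Zbtb46 promoter (chr2:181424379-181424638, minus strand): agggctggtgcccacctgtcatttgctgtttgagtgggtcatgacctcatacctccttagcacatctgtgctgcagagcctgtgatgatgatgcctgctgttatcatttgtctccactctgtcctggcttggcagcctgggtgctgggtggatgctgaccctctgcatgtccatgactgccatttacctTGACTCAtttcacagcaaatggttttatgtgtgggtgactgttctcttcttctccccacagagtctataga
Batf3 promoter (chr1:191098164-191098423, plus strand): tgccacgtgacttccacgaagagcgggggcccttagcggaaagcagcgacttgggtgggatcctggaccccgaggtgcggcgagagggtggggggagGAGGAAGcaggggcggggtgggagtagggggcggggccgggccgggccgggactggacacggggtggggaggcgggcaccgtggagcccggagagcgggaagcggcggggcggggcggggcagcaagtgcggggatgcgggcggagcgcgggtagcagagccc
Cd209a promoter (chr8:3748975-3749234, minus strand): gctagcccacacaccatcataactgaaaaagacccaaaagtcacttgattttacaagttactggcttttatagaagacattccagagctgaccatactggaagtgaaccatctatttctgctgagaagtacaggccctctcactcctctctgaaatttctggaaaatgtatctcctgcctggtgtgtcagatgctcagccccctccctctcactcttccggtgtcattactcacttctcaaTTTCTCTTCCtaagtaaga
The Zbtb46 window held an AP-1 match starting 61 bases before the start site, the Batf3 window a PU.1 core 153 bases before it, and the Cd209a window an EICE match, in reverse orientation, 9 bases before it. Over the 32851 promoters of the table, 7.03% held an AP-1 match, 11.1% a PU.1 core, 2.38% an EICE, 3.07% an ISRE and 4.02% the NF-kB consensus. A match describes letters only, and the windows of the other members with an entry held none of the 5.

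The receptors of type 1 dendritic cells were lowest at day 0 and highest at day 3. Clec9a (NCBI Gene ID 232414) encodes a lectin that binds actin exposed on dead cells. Its level was 8.05, 6.53 and 7.203 FPKM in NC and 1.12, 0.866, 0.618, 0.627 and 0.451 in D0. At day 1 it ran from 5.74 to 12.5 (median 9.53) in D1 AP+Lac and from 3.03 to 7.98 (median 5.31) in D1 AP+PBS, and at day 3 it was 16.1, 18.6, 12.4 and 15.7 in D3 AP+Lac and 23.1, 22.8, 15.04 and 14.98 in D3 AP+PBS. Every D0 library lay below every other library, while each other group overlapped its neighbours in the order of medians, which was D3 AP+PBS, D3 AP+Lac, D1 AP+Lac, NC and D1 AP+PBS. Xcr1 (23832), the receptor for the chemokine Xcl1, was at 4.48, 3.56 and 5.04 FPKM in NC and 0.731, 0.435, 0.418, 0.359 and 0.318 in D0. Day 1 libraries held 3.88 to 6.65 (median 4.23) in D1 AP+Lac and 1.16 to 4.01 (median 2.15) in D1 AP+PBS, and day 3 libraries 12.5, 13.7, 6.13 and 18.4 in D3 AP+Lac and 9.36, 9.097, 10.04 and 6.48 in D3 AP+PBS. For Xcr1 both day 3 groups lay above NC and D0 without overlap, and D3 AP+Lac had the highest median and also the widest range. Itgae (16407) encodes CD103, the integrin chain that binds E-cadherin, and is also carried by tissue T cells. It was at 4.42, 3.52 and 3.21 FPKM in NC, 0.799, 0.798, 0.301, 0.387 and 0.623 in D0, 10.5, 10.3, 3.76 and 10.5 in D3 AP+Lac and 9.72, 8.11, 10.1 and 5.51 in D3 AP+PBS. The day 1 ranges of Itgae were 2.86 to 6.33 (median 4.204) in D1 AP+Lac and 1.63 to 4.22 (median 3.17) in D1 AP+PBS, and D3 AP+Lac 3 and D3 AP+PBS 4 were the 2 day 3 libraries that fell among them.

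The lineage genes were likewise lowest at day 0. Flt3 (14255), the receptor for the growth factor Flt3 ligand that drives dendritic cell development, was at 13.1, 11.9 and 11.01 FPKM in NC and 2.26, 2.48, 2.098, 2.09 and 2.32 in D0. It ran from 11.9 to 17.2 (median 14.5) in D1 AP+Lac and from 10.2 to 13.2 (median 10.5) in D1 AP+PBS, and stood at 17.5, 12.6, 11.1 and 20.3 in D3 AP+Lac and 17.3, 20.2, 20.8 and 12.8 in D3 AP+PBS. All Flt3 groups other than D0 overlapped their neighbours in order. Zbtb46 (72147), a transcription factor that separates conventional dendritic cells from monocytes and macrophages, was at 4.05, 3.97 and 4.204 FPKM in NC and 0.502, 0.605, 0.330, 0.391 and 0.423 in D0. Its day 1 values were 2.603 to 3.88 (median 3.18) in D1 AP+Lac and 1.26 to 2.503 (median 1.92) in D1 AP+PBS, and its day 3 values 4.11, 3.66, 3.29 and 5.18 in D3 AP+Lac and 4.74, 4.92, 4.802 and 3.42 in D3 AP+PBS. Every D1 AP+Lac library was above every D1 AP+PBS library for Zbtb46, and D0 lay below all.

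Of the transcription factors of the type 1 subset, Irf8 was the member that was not lower at day 0. Irf8 (15900) is also used by monocytes, macrophages and B cells. Its level was 87.3, 94.1 and 93.6 FPKM in NC and 102, 89.04, 93.2, 101 and 97.1 in D0. It ran from 126.1 to 176 (median 142) in D1 AP+Lac and from 95.5 to 125.5 (median 111) in D1 AP+PBS. Day 3 values were 193, 157, 150.1 and 191 in D3 AP+Lac and 142, 149.96, 169.5 and 137 in D3 AP+PBS. NC and D0 overlapped, as did D0 and D1 AP+PBS, and both day 3 groups and D1 AP+Lac lay above all of these. Batf3 (381319), the partner factor of the subset, was highest in NC at 46.5, 57.5 and 45.2 FPKM and lowest in D0 at 11.6, 9.65, 7.75, 12.1 and 12.1. It ran from 22.9 to 29.6 (median 27.4) in D1 AP+Lac and from 15.4 to 25.1 (median 20.4) in D1 AP+PBS, and was 18.4, 25.2, 30.03 and 25.03 in D3 AP+Lac and 28.5, 45.01, 29.6 and 33.6 in D3 AP+PBS. No later library reached the lowest NC value of Batf3.

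The maturation genes Fscn1 and Ccr7 had their highest medians in D1 AP+Lac, and Cd209a in D3 AP+PBS. Fscn1 (14086), which bundles actin in the dendrites of mature cells, was at 100.2, 88.8 and 64.6 FPKM in NC and 32.6, 23.8, 9.57, 21.6 and 40.6 in D0. At day 1 it ran from 59.1 to 202 (median 147) in D1 AP+Lac and from 18.1 to 151 (median 40.2) in D1 AP+PBS, where library 5 alone held the highest value. At day 3 it was 64.1, 26.5, 33.96 and 56.2 in D3 AP+Lac and 139, 131, 150.03 and 73.9 in D3 AP+PBS, with no overlap. Ccr7 (12775), the receptor that guides mature dendritic cells, and naive T cells, along the chemokines Ccl19 and Ccl21, was at 111, 87.3 and 60.97 FPKM in NC and 35.1, 20.0, 7.92, 22.97 and 32.8 in D0. It ran from 79.1 to 190.5 (median 161) in D1 AP+Lac and from 27.6 to 156 (median 70.5) in D1 AP+PBS, and was 77.7, 59.5, 51.9 and 70.2 in D3 AP+Lac and 137, 159.6, 149 and 99.3 in D3 AP+PBS. For Fscn1 and Ccr7 the ranges of D1 AP+Lac and D3 AP+PBS, the next in order, overlapped, and so did those of D0 and D1 AP+PBS. Cd209a (170786), a lectin of type 2 and monocyte-derived dendritic cells, was at 59.2, 78.3 and 57.1 FPKM in NC and 2.46, 2.37, 5.35, 3.12 and 2.83 in D0. Its day 1 ranges were 21.2 to 40.2 (median 33.6) in D1 AP+Lac and 11.7 to 63.4 (median 48.9) in D1 AP+PBS, and its day 3 values 28.1, 28.1, 66.7 and 40.7 in D3 AP+Lac and 87.8, 114, 74.4 and 128 in D3 AP+PBS. Only D0 was clear of its neighbours in the order of Cd209a medians. Reads of Cd209a could be shared with related genes of the Cd209 cluster, since the counting rule is not given, so its level is uncertain.

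**Figure D1:**
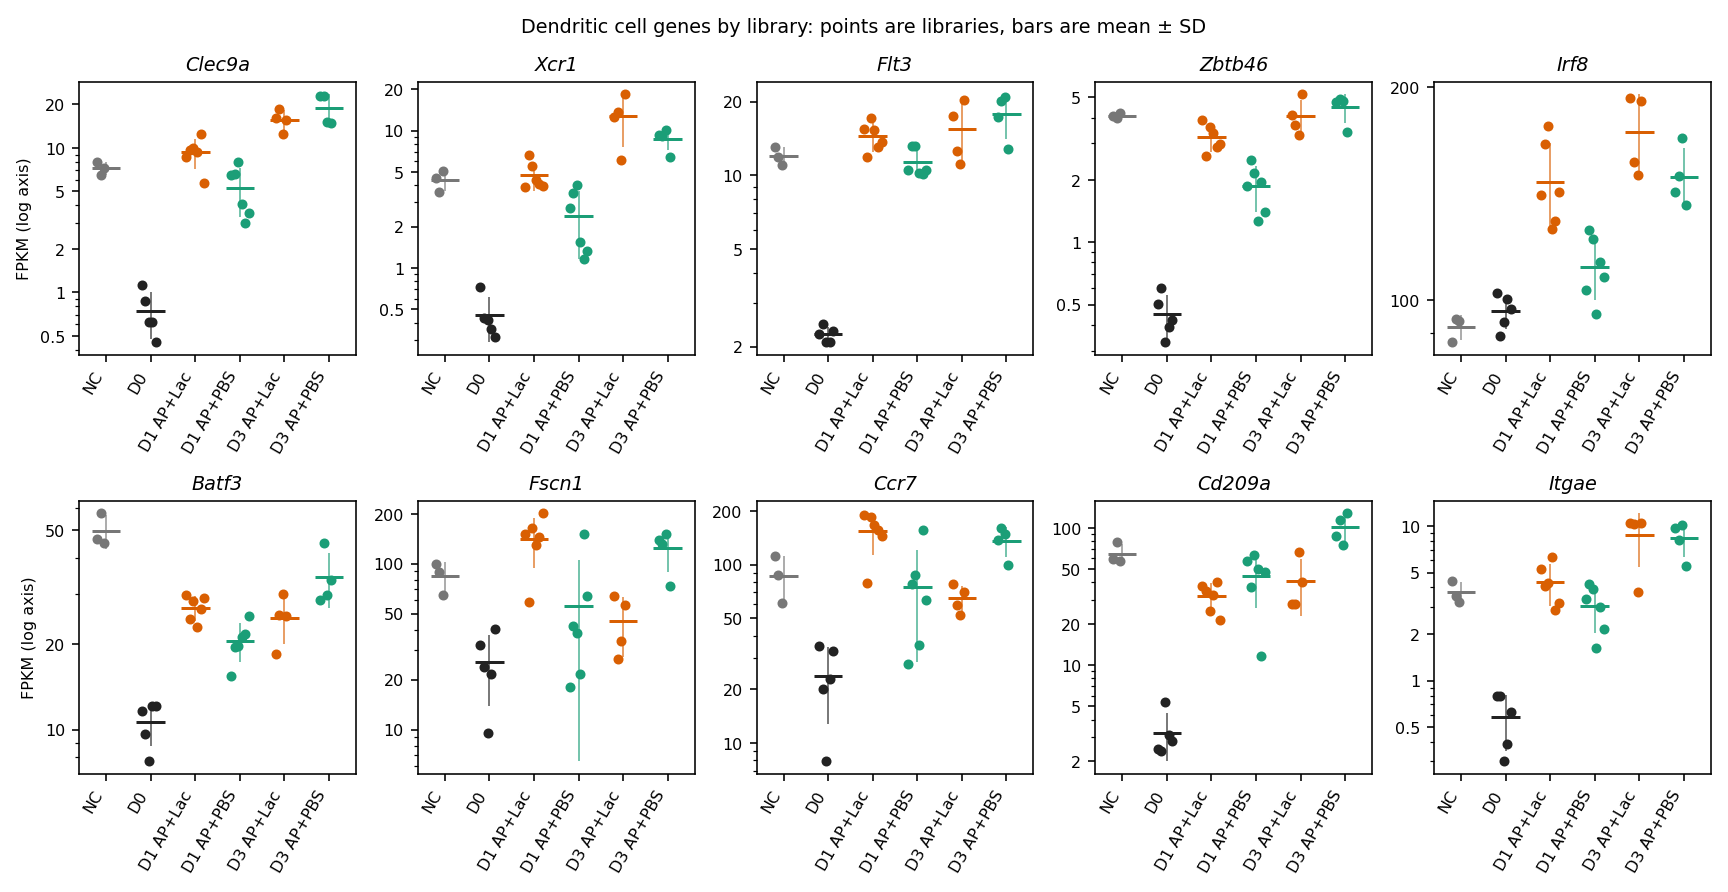
Level of each of the 10 genes in FPKM (vertical log axis) in every library, by group along the horizontal axis; points are libraries, horizontal bars group means and vertical bars 1 SD on either side. The D0 mean is the lowest of the 6 for every gene but Irf8, and for Fscn1 and Ccr7 the lactate mean is above the PBS mean at day 1 and below it at day 3.

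Dendritic cell genes were lower in D0 than in NC, apart from Irf8. By limma, 9 of 10 fell and 0 rose, where 41.4% of the 11960 genes tested fell and 19.7% rose, and the median log2 fold change was -1.91 for the members and -0.22 for all genes. The 9 that fell also had no overlap between the groups, against 46.6% of all genes. Cd209a had the widest difference, with means of 3.23 ± 1.23 FPKM in D0 and 64.9 ± 11.7 in NC (SD, n = 5 and 3; log2 fold change -3.99, SE 0.37, limma adjusted p = 2.36e-09). Clec9a fell by 2.26 on the log2 scale (SE 0.23), with 0.737 ± 0.261 FPKM in D0 and 7.26 ± 0.759 in NC. The other 7 values ran from -2.13 for Batf3 to -1.58 for Itgae, and the largest adjusted p among the 9 was 0.0037, for Fscn1. Folds are on the log2(FPKM + 1) scale, which understates the change of the genes near or under 1 FPKM in D0: Clec9a, Xcr1, Zbtb46 and Itgae. Irf8 differed by 0.07 (95% confidence interval -0.16 to 0.31, adjusted p = 0.60), a value that turned to -0.23 (adjusted p = 0.17) under quantile normalization and passed at 0.30 (adjusted p = 0.0088) under median-ratio scaling. Quantile normalization raised the median of all genes by 0.27, and median-ratio scaling by 0.18, and the other 9 members were called as lower under both.

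Most further dendritic cell genes were lower in D0 too, where 41.4% of all genes fell and 19.7% rose. All 14 shared conventional dendritic cell genes that were measured fell (median -2.03), with -4.01 for H2-Aa and -3.77 for Cd74, both of antigen presentation on MHC class II, which macrophages and B cells share, and -1.98 for Kmo, an enzyme of tryptophan breakdown. Of 15 type 2 genes, 11 fell and 1 rose, led by the lectin gene Mgl2 (-7.07) and the transcription factor Irf4 (-3.36), both of which macrophages express too. Of 15 type 1 genes, 8 fell, among them Tlr11 (-2.35) and Cadm1 (-1.11), and 3 rose, counts near the shares of all genes. The median was -0.92 for this list and -0.22 for all genes. Of 20 maturation genes 15 fell and 0 rose, among them the surface protein Cd83 (-2.61) and the cytokine subunit Ebi3 (-1.45). Under quantile normalization 9 of the 20 were called. Other cell types moved as well. Of 13 T and NK cell markers, 12 fell, with a summed level of 13.1 to 59.3 FPKM in D0 and 149.8 to 256 in NC, all 8 B and plasma cell markers and all 9 acinar markers fell; all 8 monocyte markers and 4 of 5 neutrophil markers rose (monocyte sums of 4026 to 5359.7 FPKM in D0 and 539 to 887 in NC); and of 12 macrophage markers 2 rose and 4 fell (sums of 11310.0 to 12663 FPKM in D0 and 15832 to 17502 in NC). Their part in the values of the dendritic cell genes was not tested.

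Between D0 and day 1 with PBS, 8 of 10 members rose and 0 fell by limma, where 43.0% of genes rose and 19.8% fell; the median log2 fold change was 1.24 for the members and 0.19 for all genes. Cd209a rose by 3.31 (SE 0.31, adjusted p = 2.91e-09), Flt3 by 1.91 (SE 0.13, adjusted p = 1.53e-11) and Clec9a by 1.81 (SE 0.19, adjusted p = 2.05e-08). The others that rose were Ccr7 (1.54), Itgae (1.33), Xcr1 (1.15), Zbtb46 (0.97) and Batf3 (0.88). Fscn1 (0.86, adjusted p = 0.076) and Irf8 (0.20, adjusted p = 0.068) did not pass. Irf8 was at -0.017 under median-ratio scaling, and passed under quantile normalization (0.36, adjusted p = 0.011), with the spread of the compared groups alone (adjusted p = 0.049) and without D1 AP+PBS 4 (adjusted p = 0.034). Fscn1 passed without D0 5, D1 AP+PBS 1 or D1 AP+PBS 4 (adjusted p of 0.043, 0.025 and 0.035). All 13 T and NK cell markers rose over the same interval, to 173 to 489.7 FPKM in D1 AP+PBS against 13.1 to 59.3 in D0, as did all 8 B and plasma cell, all 7 fibroblast and stellate cell and 6 of 9 acinar markers, while all 8 monocyte markers fell. The part of these in the members' rise was not tested.

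At day 1 with PBS 2 of the members were still lower than in NC. Zbtb46 was at 1.86 ± 0.464 FPKM in D1 AP+PBS and 4.08 ± 0.118 in NC (SD, n = 6 and 3; log2 fold change -0.84, SE 0.13, limma adjusted p = 5.05e-05), and Batf3 at 20.4 ± 3.19 FPKM in D1 AP+PBS and 49.7 ± 6.75 in NC (-1.25, SE 0.16, adjusted p = 2.35e-06). These 2 of 10 fell and 0 rose, where 9.18% of genes fell and 5.29% rose. The intervals of the other 8 all reached both sides of 0 apart from Xcr1 (-1.26 to -0.20, adjusted p = 0.056) and Irf8 (0.04 to 0.50, adjusted p = 0.10). Of the 20 maturation genes, 4 fell against NC, a count that ran from 0 without NC 1 (and 1 without NC 3) to 10 without D1 AP+PBS 5 and 13 without libraries 5 and 6 of day 1. Of 15 type 2 genes 6 fell and 0 rose, among them Mgl2 (-5.13), and 6 of 14 shared genes fell, among them H2-Aa (-1.502) and Cd74 (-1.43).

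From day 1 to day 3 with PBS every member rose. All 10 passed the test, where 21.5% of genes rose and 12.8% fell, with a median log2 fold change of 1.14 for the members and 0.10 for all genes, and 7 had no overlap between the groups, against 8.31% of all genes. Clec9a averaged 18.98 ± 4.59 FPKM in D3 AP+PBS and 5.30 ± 2.002 in D1 AP+PBS (SD, n = 4 and 6; log2 fold change 1.699, SE 0.20, limma adjusted p = 6.41e-06). Xcr1 rose by 1.59 (SE 0.23), Fscn1 by 1.45 (SE 0.45), Cd209a by 1.29 (SE 0.33), Itgae by 1.22 (SE 0.23) and Ccr7 by 1.06 (SE 0.38). Zbtb46 (0.94), Batf3 (0.71), Flt3 (0.60) and Irf8 (0.42) rose less, and the largest adjusted p was 0.033, for Ccr7. The Ccr7 call was lost in 5 of the 10 fits that left out a library of either group, without D1 AP+PBS 1, D1 AP+PBS 4, D3 AP+PBS 1, D3 AP+PBS 2 or D3 AP+PBS 3 (limma adjusted p of 0.069 to 0.090), and with no filter (0.062); with the spread of the compared groups alone, Ccr7 (0.079) and Fscn1 (0.056) both missed the threshold. The other members passed in every fit that left out a library.

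Many genes of the further lists rose over the same step, where 21.5% of all genes rose and 12.8% fell. Of 15 type 1 genes 10 rose and 2 fell, with 1.64 for Gpr141b and 1.36 for Tlr11; of 14 shared genes 12 rose and 0 fell, with 1.36 for Itgax, which encodes CD11c, and 1.07 for the receptor Kit; and of 15 type 2 genes 6 rose and 0 fell, with 1.98 for Mgl2. Of 20 maturation genes 17 rose and 0 fell (median 0.93), among them the cytokine subunit Il12b (1.79), the checkpoint ligand Pdcd1lg2 (0.99) and the receptor Tnfrsf4 (1.25). The count for the maturation genes was 7 when the spread was taken from the compared groups alone, and 11 without any 1 of D1 AP+PBS 1, D1 AP+PBS 4, D3 AP+PBS 1 and D3 AP+PBS 2. Over the same interval 11 of 12 macrophage markers fell, with a summed level of 7559 to 11592 FPKM in D3 AP+PBS and 12516 to 20833 in D1 AP+PBS, and 11 of 13 T and NK cell markers rose (623 to 859.9 in D3 AP+PBS and 173 to 489.7 in D1 AP+PBS), as did 5 of 9 acinar markers. FPKM are shares of a library, and the part of these shifts in the members' rise was not tested.

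**Figure D2:**
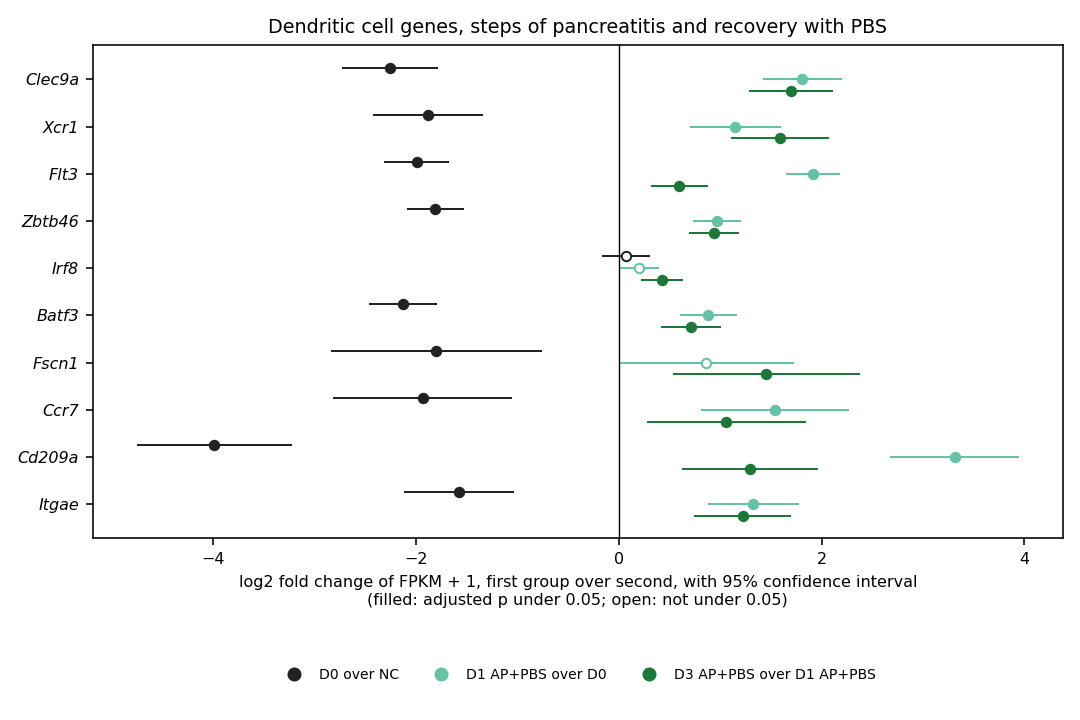
Log2 fold change of each of the 10 genes (horizontal axis, with its 95% confidence interval) for D0 over NC, D1 AP+PBS over D0 and D3 AP+PBS over D1 AP+PBS; filled points passed an adjusted p of 0.05 and open points did not. All genes but Irf8 lie below 0 in D0 over NC, and all 10 lie above 0 in the step to day 3.

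Set against NC, day 3 with PBS divided the members. Clec9a rose by 1.25 (SE 0.24, limma adjusted p = 0.00055), Itgae by 0.97 (SE 0.28, adjusted p = 0.015), Xcr1 by 0.86 (SE 0.28, adjusted p = 0.03), Irf8 by 0.70 (SE 0.12, adjusted p = 0.00017) and Flt3 by 0.51 (SE 0.16, adjusted p = 0.028). Batf3 fell by 0.54 (SE 0.17, adjusted p = 0.026). In all 5 of 10 rose and 1 fell, where 10.3% of genes rose and 10.9% fell. Zbtb46 was at 0.10 (-0.19 to 0.39), and Fscn1, Ccr7 and Cd209a at 0.52, 0.67 and 0.61 with intervals that reached both sides of 0. There were 3 calls in place of 6 without NC 2, without NC 3 or without D3 AP+PBS 3. The Xcr1 call was lost in 6 of the 7 fits that left out a library, all but that without D3 AP+PBS 4 (limma adjusted p of 0.059 to 0.11), with a pseudocount of 0.1 (0.056) and with no filter (0.053). Of 15 type 2 genes 0 rose and 3 fell against NC: Mgl2 (-3.15), Clec4a4 (-1.29) and Klf4 (-1.22), Mgl2 and Klf4 being expressed by macrophages too. Of 15 type 1 genes 5 rose and 1 fell, and of 14 shared genes 3 rose and 0 fell. Of 20 maturation genes 4 rose and 0 fell, a count that was 0 without NC 2, NC 3 or D3 AP+PBS 1. At day 3, 11 of 13 T and NK cell markers were higher than in NC and 10 of 12 macrophage markers lower; their part was not tested.

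Lactate and PBS were compared on each day, since the study's title asks what lactate does to macrophages during repair. At day 1, 6 of 10 members rose and 0 fell by limma, where 5.16% of genes rose and 4.56% fell; the median log2 fold change was 0.49 for the members and 0.02 for all genes. Fscn1 averaged 142 ± 47.3 FPKM in D1 AP+Lac and 55.8 ± 49.4 in D1 AP+PBS (SD, n = 6 each; log2 fold change 1.61, SE 0.40, adjusted p = 0.016), and Ccr7 154 ± 40.4 FPKM in D1 AP+Lac and 74.6 ± 46.3 in D1 AP+PBS (1.205, SE 0.34, adjusted p = 0.026). The groups overlapped for both: D1 AP+Lac 2 was low, at 59.1 FPKM of Fscn1 and 79.1 of Ccr7, and D1 AP+PBS 5 was high, at 151 and 156. Xcr1 rose by 0.82 (SE 0.21, adjusted p = 0.017) and Clec9a by 0.75 (SE 0.18, adjusted p = 0.015). Zbtb46 (0.57, SE 0.11, adjusted p = 0.0089) and Irf8 (0.39, SE 0.09, adjusted p = 0.013) rose less. They were the 2 members whose 6 lactate libraries all lay above the 6 PBS libraries, which held for 0.134% of all genes. The gaps were narrow. The lowest lactate and highest PBS values were 126.1 and 125.5 FPKM for Irf8 and 2.603 and 2.503 for Zbtb46.

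Batf3 (0.38, interval 0.12 to 0.65, adjusted p = 0.057) and Flt3 (0.33, interval 0.07 to 0.58, adjusted p = 0.093) missed the threshold at day 1, as did Itgae (0.41, interval -0.02 to 0.84). Cd209a was the 1 member with a lower mean with lactate, 31.9 ± 7.43 FPKM in D1 AP+Lac and 44.6 ± 18.5 in D1 AP+PBS (-0.34, interval -0.94 to 0.26, adjusted p = 0.51), and its lowest value was in D1 AP+PBS 5. The day 1 calls depend on the pooled spread: with the spread taken from the 12 day 1 libraries alone, limma called 0 members and 0 genes, while 8 members and 2282 genes had an unadjusted p under 0.05. Without D1 AP+PBS 4 only Zbtb46 of the members was called, and without libraries 5 and 6 of both groups, chosen after seeing the data, 7 were, Batf3 being the added one.

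Many maturation genes were higher with lactate at day 1, where 5.16% of all genes rose and 4.56% fell. Of 20, 13 rose and 0 fell (median 0.87), those with the smallest p being Tnfrsf4 (1.297, adjusted p = 0.0089), the checkpoint ligand Cd274 (1.86, adjusted p = 0.0095) and Pdcd1lg2 (0.88, adjusted p = 0.0098), all by limma. Both checkpoint ligands are also induced in macrophages by interferon. By limma with the spread of the 12 day 1 libraries alone the count was 0, with 15 at an unadjusted p under 0.05, and it was 5 without D1 AP+PBS 1 or without D1 AP+PBS 4, and 16 risen and 1 fallen without libraries 5 and 6. Of 15 type 1 genes 5 rose and 0 fell, among them the transcription factor Id2 (0.66), Tlr11 (0.64) and the chemokine Cxcl9 (2.62). The median of this list was 0.43. Which of the sorted cells carried these changes was not tested. Of 14 shared genes 5 rose and 0 fell, among them Dpp4 (0.87), Traf1 (1.03) and Relb (0.73). Relb is a subunit of NF-kB that mature dendritic cells use. Of 15 type 2 genes 3 rose and 1 fell, with 1.104 for the lipid-presenting Cd1d1 and -0.56 for the transcription factor Klf4.

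Other markers moved between the day 1 groups as well. Of 12 macrophage markers 5 fell, Adgre1, Cd14, Csf1r, Lyz2 and Mrc1. In all, 11 of the 12 were below 0 and all 12 had an unadjusted limma p under 0.05 (median log2 fold change -0.58). The list summed to 7491 to 15876 FPKM in D1 AP+Lac and 12516 to 20833 in D1 AP+PBS. Of 13 T and NK cell markers 4 rose, Gzma, Gzmb, Ncr1 and Nkg7, all of cytotoxic cells. All 13 were above 0, 6 of them with an unadjusted limma p under 0.05 (median 0.61). Their sums were 265 to 835 FPKM in D1 AP+Lac and 173 to 489.7 in D1 AP+PBS. Of 8 monocyte markers 3 rose and 7 were above 0 (median 0.80), with sums of 1630.1 to 2934 FPKM in D1 AP+Lac and 846 to 2832 in D1 AP+PBS. Their part in the members' differences was not tested. Among 8 chemokines and growth factors that act on the members, 6 were expressed enough to be tested, and Xcl1, the ligand of Xcr1 made by NK and T cells, was the 1 that rose: 13.04 ± 6.16 FPKM in D1 AP+Lac and 5.09 ± 2.404 in D1 AP+PBS (SD, n = 6 each; 1.18, SE 0.26, limma adjusted p = 0.011). Flt3l, the ligand of Flt3, was at 0.11 (interval -0.11 to 0.33, adjusted p = 0.58).

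At day 3 no member passed the test between lactate and PBS. Limma called 0 of 10, and 0.192% of genes rose and 0.184% fell, while 4 members had an unadjusted p under 0.05, against 17.9% of all genes. Those 4 were Cd209a, Fscn1, Ccr7 and Batf3, all with lower means with lactate. Cd209a averaged 40.9 ± 18.2 FPKM in D3 AP+Lac and 101 ± 24.3 in D3 AP+PBS (SD, n = 4 each; log2 fold change -1.34, interval -2.08 to -0.61, adjusted p = 0.087), and passed under quantile normalization and without D3 AP+Lac 3. Fscn1 averaged 45.2 ± 17.8 FPKM in D3 AP+Lac and 124 ± 34.03 in D3 AP+PBS (-1.47, interval -2.48 to -0.46, adjusted p = 0.14). For Ccr7 the means were 64.8 ± 11.4 FPKM in D3 AP+Lac and 136 ± 26.2 in D3 AP+PBS (-1.05, interval -1.91 to -0.20, adjusted p = 0.19), and for Batf3 24.7 ± 4.76 in D3 AP+Lac and 34.2 ± 7.53 in D3 AP+PBS (-0.45, adjusted p = 0.15). In Cd209a, Fscn1 and Ccr7 all 4 lactate libraries lay below all 4 PBS libraries, which held for 4.33% of all genes. The intervals of Clec9a, Xcr1, Flt3, Zbtb46, Irf8 and Itgae reached both sides of 0, with -0.70 to 0.21 for Clec9a and -0.11 to 0.95 for Xcr1. Markers of other cells differed in the same libraries, with 0 called by limma. All 9 acinar markers were below 0 with an unadjusted p under 0.05 (median log2 fold change -1.71, against 0.02 for all genes), with sums of 445 to 3955 FPKM in D3 AP+Lac and 1955 to 14599.7 in D3 AP+PBS. Of 13 T and NK cell markers 12 were below 0 (1 at an unadjusted p under 0.05), and of 12 macrophage markers 11 were above 0 (2 at an unadjusted p under 0.05), with macrophage sums of 8414 to 13922 FPKM in D3 AP+Lac and 7559 to 11592 in D3 AP+PBS. Their part in the members' values was not tested.

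**Figure D3:**
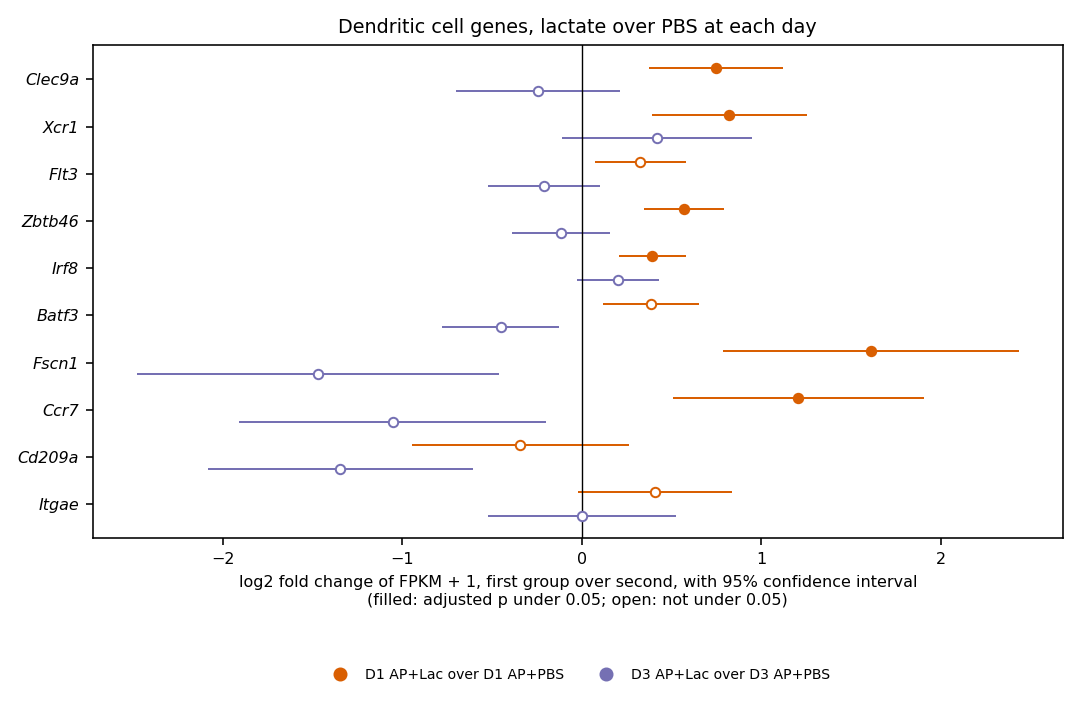
Log2 fold change of each of the 10 genes (horizontal axis, with its 95% confidence interval) for lactate over PBS at day 1 and at day 3; filled points passed an adjusted p of 0.05 and open points did not. Fscn1 and Ccr7 lie above 0 at day 1 (1.61 and 1.205) and below 0 at day 3 (-1.47 and -1.05).

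The lactate effect at day 3 minus that at day 1 was tested directly. It was negative and passed for 5 of 10 members and positive for 0, where 5.94% of genes had a negative and 4.76% a positive call. Fscn1 had -3.08 (SE 0.63, limma adjusted p = 0.0066) and Ccr7 -2.26 (SE 0.54, adjusted p = 0.011). Clec9a (-0.99, SE 0.29, adjusted p = 0.028), Batf3 (-0.84, SE 0.20, adjusted p = 0.012) and Zbtb46 (-0.68, SE 0.17, adjusted p = 0.013) had smaller differences. Cd209a (-1.003, adjusted p = 0.16) and Flt3 (-0.54, adjusted p = 0.075) did not pass, and neither did Itgae (-0.41), Xcr1 (-0.40) and Irf8 (-0.19). The Clec9a call was lost without D1 AP+PBS 4, D3 AP+Lac 3, D3 AP+PBS 1 or D3 AP+PBS 2 (adjusted p of 0.053 to 0.068), with no filter and with the spread of the 4 groups alone. Between 4 and 6 members were called under every alternative run, including the spread of the 4 day 1 and day 3 groups alone (4) and the fit without libraries 5 and 6 of day 1 (5).

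Of the 20 further maturation genes, 18 had a negative difference that passed and 0 a positive one, with a median of -1.64 against 0.01 for all genes. The 3 with the smallest p were Tnfrsf4 (-2.38, SE 0.39), Socs2 (-1.54, SE 0.28), a suppressor of cytokine signalling, and Apol7c (-3.14, SE 0.66), with limma adjusted p of 0.0046, 0.0046 and 0.0077. Cd83 (-0.03) and Ebi3 (0.15) were the 2 that did not pass, named after their values were seen. At day 3 itself limma called 0 of the 20, with 14 at an unadjusted p under 0.05, all 20 below 0 and a median of -0.72. Under the alternatives run the count of negative differences was between 13, with the spread of the compared groups alone, and 18. Of the other lists, 2 of 15 type 1, 2 of 15 type 2, 4 of 14 shared and 2 of 10 plasmacytoid genes had a negative difference that passed. None of these lists had a positive one, and 5.94% of all genes had a negative call. The type 2 list had a median of -0.03, with 7 genes above 0 and 8 below. Over the same contrast 5 of 12 macrophage markers had a positive difference that passed. In all, 11 of the 12 were above 0, with a median of 0.93 and 10 at an unadjusted limma p under 0.05. Of 13 T and NK cell markers 5 had a negative difference that passed. All 13 were below 0, with a median of -1.07 and 7 at an unadjusted limma p under 0.05. T and NK cell sums at day 3 were 390.4 to 662 FPKM in D3 AP+Lac and 623 to 859.9 in D3 AP+PBS. The part of these markers was not tested.

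**Figure D4:**
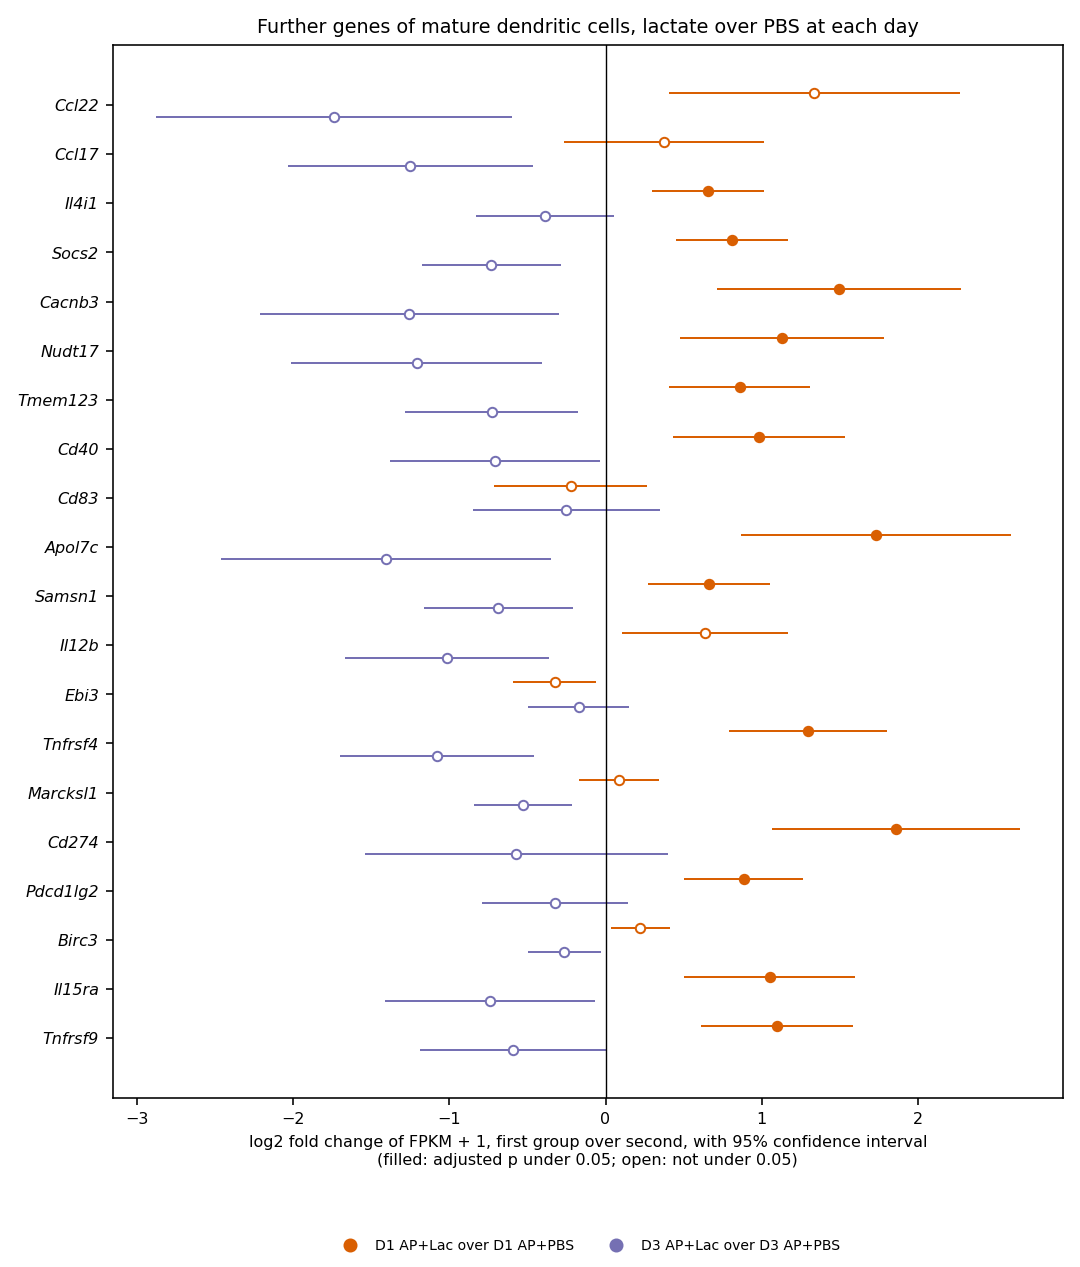
Log2 fold change of 20 further genes of mature dendritic cells (horizontal axis, with its 95% confidence interval) for lactate over PBS at day 1 and at day 3; filled points passed an adjusted p of 0.05 and open points did not. At day 1, 13 genes lie above 0 and passed, and at day 3 none passed while all 20 lie below 0.

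With lactate, the step from day 1 to day 3 brought higher Xcr1, Itgae and Clec9a and lower Fscn1. Xcr1 averaged 12.7 ± 5.06 FPKM in D3 AP+Lac and 4.75 ± 1.11 in D1 AP+Lac (SD, n = 4 and 6; log2 fold change 1.18, SE 0.23, limma adjusted p = 0.0063), Itgae rose by 0.82 and Clec9a by 0.71 (adjusted p = 0.044 for both), while Fscn1 fell by 1.62 (SE 0.45, adjusted p = 0.039). These were 3 members risen and 1 fallen, where 2.77% of genes rose and 1.86% fell. Ccr7 was at -1.195 (adjusted p = 0.062) with no overlap between the groups, lower in every D3 AP+Lac library, as were 1.72% of all genes. These calls rested on few libraries. With the spread of the compared groups alone limma called 0 members and 17 genes, with 5 members and 2138 genes at an unadjusted p under 0.05. Without D1 AP+Lac 1, D1 AP+Lac 6, D3 AP+Lac 1, D3 AP+Lac 2 or D3 AP+Lac 4 it called 1 member, and without D1 AP+Lac 5 it called 2.

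The balance of the maturation gene Ccr7 to the type 1 receptor Clec9a was taken as their FPKM ratio in each library. Its median and range were 13.4 (8.46 to 13.8) in NC, 31.2 (12.8 to 72.7) in D0, 18.2 (8.16 to 25.3) in D1 AP+Lac, 11.4 (4.24 to 51.5) in D1 AP+PBS, 4.33 (3.204 to 4.84) in D3 AP+Lac and 6.81 (5.92 to 9.89) in D3 AP+PBS. At day 3 every lactate library was below every PBS library, and at day 1 the groups overlapped, with D1 AP+PBS 5 the highest of all day 1 libraries. In D0 the ratio had a small denominator, with Clec9a at 0.451 to 1.12 FPKM. Ccr7 also had its lowest median in D0, at 22.97 FPKM. As Ccr7 is also made by T cells, the ratio is not one of dendritic cells alone.

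For each member the 3 genes of closest pattern were taken by Pearson's r of log2(FPKM + 1) over the 28 libraries, as a description in which the low D0 libraries weigh heavily. Clec9a went most closely with Gpr141b (0.97), Septin3 (0.96) and Mycl (0.96), and Xcr1 with Septin3 (0.97), Gpr141b (0.96) and Snx22 (0.95), so Gpr141b and Septin3 were common to both. Itgae went with Plekha5 (0.97), Il18r1 (0.96) and Gata3 (0.96). The list for Flt3 was Usp11 (0.98), Kmo (0.97) and H2-Oa (0.97), and for Zbtb46 Kit (0.97), Tlr11 (0.96) and Rras2 (0.96). Fscn1 was closest to Cacnb3 (0.99), Nudt17 (0.98) and Adcy6 (0.97) and Ccr7 to Serpinb6b (0.98), Tnfrsf4 (0.96) and Traf1 (0.96). The remaining sets were Prkab2 (0.91), Lpcat1 (0.91) and H2-Aa (0.91) for Cd209a, Tnni3 (0.95), Amz1 (0.92) and Klri1 (0.91) for Batf3 and Fanca (0.90), Usp1 (0.88) and Cd2bp2 (0.87) for Irf8, whose highest value was the lowest of the 10. No member was among the 3 closest genes of another.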

How the data were processed

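Libraries were prepared from 10 ng of total RNA of sorted macrophages, per the labels' protocols. The authors deposited a single FPKM table for 25301 genes (18017 protein-coding) and 28 libraries, per the file headers. Tools listed in the submitters' processing notes are fastp and R 3.2.0; aligner, counting rule and genome build: not given in the sources used here. Recovered fragments were whole for 100% of values (tolerance 0.01). Among 55 pairs of libraries of 1 group, the closest pair differed by 24.5 times the chi-square expected from sampling alone.

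The 11960 genes that reached an FPKM of 1 in 3 or more libraries were fitted on log2(FPKM + 1) with limma 3.58.1 (R 4.3.3; trended, robust variances; 1 spread pooled over 28 libraries). P-values are two-sided with Benjamini-Hochberg adjustment across the genes tested in each of 9 comparisons, threshold 0.05; comparisons that share a group are not independent. The procedure was tested on simulated data. Python 3.11.15, numpy 2.4.6, pandas 2.3.3 and scipy 1.17.1 did the rest. All 10 members are named whatever their result; from each further list up to 3 called genes with the smallest p are named per comparison, and others named in the text were chosen after their values were seen. One listed gene, Amica1, had no entry under that symbol. Members and lists were chosen with earlier results of these data known. Alternatives were a pseudocount of 0.1, no filter or one at FPKM 5, quantile and median-ratio scaling, rescaling without acinar genes, the compared groups alone, a replicate block, each library left out and, chosen after seeing the data, day 1 without libraries 5 and 6.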

Additional observations from a re-analysis of the deposited data

Results flagged for a closer look

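Among 50 combinations of a gene and a group of 4 to 6 libraries, 5 had a library far from the rest of its group by Dixon's gap test on log2(FPKM + 1), where chance gives about 1 in 20. Zbtb46 was at 3.42 FPKM in D3 AP+PBS 4, Itgae at 3.76 in D3 AP+Lac 3 and Cd209a at 11.7 in D1 AP+PBS 5, each the lowest of its group. Fscn1 at 59.1 and Ccr7 at 79.1 FPKM were both lowest in the same library, D1 AP+Lac 2.

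The lactate effect differed between day 3 and day 1 by limma's test of the difference for 5 of the 10 genes, all with a negative value on the log2 scale: -3.08 for Fscn1, -2.26 for Ccr7, -0.99 for Clec9a, -0.84 for Batf3 and -0.68 for Zbtb46. Genes of the further lists with such a difference were Apol7c (-3.14), Tnfrsf4 (-2.38) and Socs2 (-1.54) of the maturation list, Traf1 (-1.71), Dpp4 (-1.59) and Relb (-1.26) of the shared list, Cd1d1 (-1.697) and Esam (-1.48) of the type 2 list, and Tlr3 (-1.12) and Id2 (-1.02) of the type 1 list. Irf7 (-3.96) and Bst2 (-2.03), both induced by interferon in many cell types, stood in the plasmacytoid list, and Xcl1 (-2.08), the ligand of Xcr1, among the chemokines. At day 1 Xcl1 was at 13.0 FPKM on average with lactate and 5.09 with PBS, and at day 3 at 12.7 with lactate and 25.1 with PBS.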

How the results depend on the processing

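Of the members' log2 fold changes under alternatives, 1599 kept their direction and their side of the threshold, 80 lost and 28 gained significance, and 14 changed sign. Sign changes were of values near 0: Irf8 in D0 against NC was at -0.23 with quantile normalization, and in D1 AP+PBS against D0 at -0.017 with median-ratio scaling; Flt3 in D3 AP+Lac against D1 AP+Lac was at -0.0064 with quantile normalization, -0.036 with median-ratio scaling and -0.077 to 0.19 with a library left out; Itgae at day 3 with lactate against PBS was at -0.0097 with a pseudocount of 0.1, -0.026 with quantile normalization, -0.0098 with median-ratio scaling and -0.16 to 0.32 with a library left out. The cause was not tested.

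In D1 AP+PBS against NC, 1 member was called with the filter at FPKM 5 and 4 with median-ratio scaling. Zbtb46 was above 5 FPKM in D3 AP+Lac 4 alone (5.18), so that filter dropped it and it was not tested there. For D3 AP+Lac against D1 AP+Lac, 2 members were called with a pseudocount of 0.1, 1 with no filter and 0 (17 genes) with the compared groups alone; rescaling without acinar genes called 1013 genes. For lactate at day 1, 616 genes were called with no filter, 0 members and 0 genes with the compared groups alone, and 3426 genes without libraries 5 and 6. At day 3, 11 genes were called with the smaller pseudocount, 104 with no filter, 21 with the filter at FPKM 5, 213 and 1 member (Cd209a) with quantile normalization, 77 with median-ratio scaling and 8 with the compared groups alone. For the difference of the lactate effects, 546 genes were called with the compared groups alone and 3408 without libraries 5 and 6. Fewer libraries enter the spread with the compared groups alone. The causes of the other changes were not tested.

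With a library left out, members called ran from 2 to 3 in D1 AP+PBS against NC (937 to 1933 genes), 3 to 6 in D3 AP+PBS against NC (1188 to 2335 genes), 1 to 5 in D3 AP+Lac against D1 AP+Lac (159 to 1392 genes), 1 to 8 for lactate at day 1 (191 to 2380 genes), 0 to 1 at day 3 (0 to 163 genes) and 4 to 6 for the difference of the lactate effects (622 to 2262 genes). In D0 against NC every such fit called 9 members, and in D3 AP+PBS against D1 AP+PBS 9 or 10.

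Scaling moved the split of higher and lower calls. In D0 against NC it was 2361 higher and 4948 lower as deposited, 3558 and 2755 with quantile normalization, and 3597 and 3858 with median-ratio scaling. In D1 AP+PBS against D0 it was 5147 and 2374 as deposited, 2835 and 3666 with quantile normalization, and 3920 and 3808 with median-ratio scaling, which shifted the median of all genes by -0.23 and -0.17. In D3 AP+PBS against D1 AP+PBS it was 2569 and 1534 as deposited, 1771 and 2185 with quantile normalization (shift -0.11), and 1861 and 2020 with median-ratio scaling. Smaller sets moved too: D3 AP+PBS against NC, 1236 and 1299 as deposited and 809 and 1593 with median-ratio scaling; D3 AP+Lac against D1 AP+Lac, 331 and 222 as deposited and 209 and 313 with median-ratio scaling; lactate at day 1, 617 and 545 as deposited and 662 and 380 with rescaling without acinar genes.

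Correlations of the deviations of same-numbered libraries ran from -0.573 to 0.610 and were not all over 0.1 in any comparison, so the numbers were not taken as pairs. At day 1, 4 of the 6 lactate and PBS pairs were over 0.1, and libraries 5 and 6 of both groups stood apart together on the third principal component. With the replicate number as a block, 1 member and 181 genes were called in D3 AP+Lac against D1 AP+Lac and 122 genes for lactate at day 3. The planned count test on recovered fragments was not run. The lowest member value rested on 50 fragments, and the number of libraries limits the precision.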

Other observations

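Genes of plasmacytoid dendritic cells, the interferon-producing subset, were measured beside the conventional markers. Of 10, 7 fell and 2 rose in D0 against NC by limma, where 41.4% of all genes fell and 19.7% rose. Siglech, the lectin that marks the subset in mice and is also found on some macrophages, was at -2.83. Klk1 was at -2.92 and the interferon-induced Bst2 at 1.96. All 9 acinar markers fell in the same comparison, and their part was not tested. In D3 AP+PBS against D1 AP+PBS 5 rose and 0 fell, where 21.5% of all genes rose and 12.8% fell, with 1.201 for Siglech and 0.74 for the transcription factor Runx2. With lactate at day 1, where 5.16% of all genes rose, 2 of 10 rose, Irf7 (2.09, adjusted p = 0.017) and Bst2 (0.94, adjusted p = 0.042), while Siglech was at 0.19 (95% confidence interval -0.23 to 0.61). Irf7 ran from 203 to 1093 (median 559.98) FPKM in D1 AP+Lac and from 45.99 to 795 (median 70.99) in D1 AP+PBS, so the groups overlapped. At day 3 it averaged 120.04 ± 68.4 FPKM in D3 AP+Lac and 415 ± 153 in D3 AP+PBS (SD, n = 4 each).

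Flt3l, the gene of the Flt3 ligand, was lower in D0 than in NC by limma (-0.83, adjusted p = 1.54e-05) and higher in D1 AP+PBS than in D0 (0.72, adjusted p = 7.85e-06), where Flt3 had -1.996 and 1.91; these 2 comparisons share the D0 libraries.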
